A study of Mus musculus with 4 samples.

Results

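The cells described here are 168 cells of day 5 and day 6 gastruloids in which the transcript of Tbx1 was counted at least once and that of Epcam, an epithelial adhesion molecule, fewer than 2 times. They were chosen by these counts from the 13258 cells of both days with 2000 or more unique molecular identifiers (UMIs, counts of captured transcript molecules) and a mitochondrial share under 20%. At day 5 there were 70 such cells of 7408, and at day 6 there were 98 of 5850. They are called Tbx1-positive cells below, and each day's set was compared with 10 Tbx1-negative cells per Tbx1-positive cell, drawn from the same day with Epcam under 2 UMIs and a matched total UMI count, giving 700 and 980 matched cells.

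Gastruloids are aggregates of mouse embryonic stem cells (mESCs) that break symmetry and form derivatives of the germ layers in culture. Those of the series were made from 1 wild type mESC line, Zx1, and were collected as 1 pooled library at each of days 4, 5, 6 and 11, with 29190 cells past the limits in all. The gastruloids of both days shared a culture in N2B27 medium with a pulse of the WNT activator CHIR99021 before day 4 and bFGF, VEGF and ascorbic acid from day 4 on. Since each day is 1 library of several gastruloids, no value could be compared with a spread between replicates, no p-value is given, and every interval is a 95% interval that covers counting error only.

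Tbx1 encodes a T-box transcription factor and lies in the region of mouse chromosome 16 that corresponds to the human 22q11.2 deletion. In the embryo it is made in cardiopharyngeal mesoderm, the common source of second heart field myocardium and branchiomeric head muscle, and also in pharyngeal endoderm, pharyngeal surface ectoderm, the otic vesicle and, later, lymphatic endothelium. In cardiopharyngeal mesoderm it acts together with factors such as Isl1, Tcf21 and Ebf family members and holds back cardiomyocyte differentiation. The gene lies at chr16:18580979-18590671 on the minus strand of GRCm38, and the count matrices carry no information on which exons were read.

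Tbx1 was a scarce transcript in both libraries, and most Tbx1-positive cells rest on 1 molecule. At day 5, 59 of the 70 cells had 1 Tbx1 UMI, 10 had 2 and 1 had 3, together 82 UMIs. At day 6, 71 of the 98 cells had 1 UMI, 16 had 2, 6 had 3, 3 had 4 and 2 had 5, together 143 UMIs. The selected cells made up 1.36% (exact binomial interval 1.06 to 1.72) of the 5142 day 5 cells with Epcam under 2 UMIs and 1.77% (1.44 to 2.16) of the 5532 such day 6 cells. The level of Tbx1 over all of these cells was 0.533 CPM (UMIs per 1000000 counted; exact Poisson interval 0.424 to 0.662) at day 5 and 0.862 CPM (0.726 to 1.02) at day 6. After every cell was thinned to 10000 UMIs, 31 of 4814 cells (0.644%) and 39 of 5334 cells (0.731%) kept a Tbx1 UMI, so the count of Tbx1-positive cells depended on depth.

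The Epcam limit removed most Tbx1-positive cells at day 5 and few at day 6. Tbx1 was counted in 229 cells at day 5, of which 30.6% were kept, and in 115 cells at day 6, of which 85.2% were kept. The 159 Tbx1-positive day 5 cells left out had an Epcam level of 334 CPM, against 13.1 CPM in the cells kept and 10.4 CPM in their matched cells. At the limit itself, 21 of the 70 day 5 cells had 1 Epcam UMI, 21 more Tbx1-positive cells stood just outside it with 2, and 13 had 3. At day 6, 92 of the 98 cells had no Epcam UMI and 6 had 1, while 2 more Tbx1-positive cells had 2 and none had 3. The lowest total among the selected cells was 2074 UMIs at day 5 and 9853 at day 6, and in each library 1 further cell was left out by the UMI limit, with 1828 and 549 UMIs.

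The libraries held 236714826 UMIs at day 5 and 182150138 at day 6, and shared 19 cell barcodes of 7794 and 6628. The median total of the Tbx1-positive cells was 19676 UMIs at day 5, below the median of 28400.5 over all cells of that day, and 28969 UMIs at day 6, against 25581. Matching removed this difference, since the matched cells had medians of 19888.5 and 29335 UMIs. The share of cells among the 8% with the highest doublet scores was 5.71% of the Tbx1-positive cells against 3.57% of the matched cells at day 5, and 9.18% against 11.3% at day 6.

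At day 5 a large share of the Tbx1-positive cells fell in a cluster led in part by keratin genes, and the others were spread thinly over the rest of the gastruloid. The cells of each day were clustered without Tbx1 and Epcam. Cluster 7, led by Actc1, Krt15, Rgcc, Perp and Krt19, held 33 of the 70 Tbx1-positive cells (47.1%) but 9.86% of the matched cells. Within it, 11.1% (7.80 to 15.3) of the 296 cells with Epcam under 2 UMIs were Tbx1-positive, at 6.54 CPM (4.69 to 8.87), and 7.38% remained so after thinning to 10000 UMIs. Outside it, 37 of 4846 cells (0.764%, 0.538 to 1.05) were Tbx1-positive, at 0.278 CPM (0.199 to 0.377). The cluster could not be given a cell type name from the marker lists. It straddled the Epcam limit, since 42.3% of its 513 cells had 2 or more Epcam UMIs, and a further 40 Tbx1-positive cells of it were left out for that reason.

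No other day 5 cluster held more than 5 Tbx1-positive cells. Cluster 16, led by Rgcc, Krt19 and Crip2, held 4 of its 81 cells with Epcam under 2 UMIs at 6.38 CPM, with a median of only 5322 UMIs per cell. The endothelium-like cluster 8 held 4 of 411 cells (0.973%), and the cycling cells of cluster 1, led by Nusap1 and Ube2c, held 1 of 619 (0.162%, 0.00409 to 0.897) at a median of 38400 UMIs. In clusters 11 and 12 a Tbx1 UMI was found in 0 of 205 and 0 of 187 cells, for which the exact intervals reach 1.78% and 1.95%. In droplet libraries free RNA gives UMIs in cells that do not make a transcript. Read against cluster 1, which had the lowest share above 0, clusters 7, 13 and 16 had share intervals that lay above its interval, and those of the other clusters overlapped it. Cluster 1 was picked by this same share, so standing above it was partly set by the choice. By level, the intervals of clusters 9 and 14, at 1.76 CPM (0.362 to 5.14) and 3.09 CPM (0.638 to 9.04), also lay above that of cluster 1 (0.000998 to 0.220). Cluster 13, endoderm and epithelium-like, held 3 of 17 cells (17.6%, 3.80 to 43.4), and the share in cluster 16 was 4.94% (1.36 to 12.2).

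At day 6 the Tbx1-positive cells came from several clusters, of which an endothelium-like and a cardiopharyngeal mesoderm-like cluster held the most. The endothelium-like cluster 6, led by Ctla2a, Cdh5, Ecscr, Cldn5 and Icam2, held 22 of the 98 cells (22.4%, against 11.3% of the matched cells), which were 4.93% (3.12 to 7.37) of its 446 cells with Epcam under 2 UMIs, at 1.81 CPM (1.26 to 2.51). These 22 cells were deep, with a median of 59946 UMIs against 35884 in the Tbx1-negative cells of the cluster, and after thinning the share was 1.15%. Cluster 7, which is cardiopharyngeal mesoderm-like and with Rgs5, Armh4 and Ntrk2 among its leading genes, held 19 of 416 cells (4.57%, 2.77 to 7.04) at 2.80 CPM (1.76 to 4.24), and 2.46% after thinning. Cluster 12, led by Tlx1 and Armh4, held 11 of 224 cells (4.91%, 2.48 to 8.62) at 2.24 CPM (1.25 to 3.69). The intervals of the levels in clusters 6, 7 and 12 overlap, so their order is not resolved. At a coarser clustering (Leiden resolution 0.5) the largest number, 23 of the 98, fell in a cluster led by Rgs5 and Ntrk2 that could not be named. They were 2.87% (1.83 to 4.28) of its 801 cells with Epcam under 2 UMIs. The endothelium-like cluster and a cluster led by Nusap1 and Cenpf held 22 each, and a cluster led by 2610528A11Rik and Hoxb9 held 20.

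The remaining day 6 clusters held smaller shares of Tbx1-positive cells before thinning. Cluster 1, led by 2610528A11Rik and cell cycle genes, held 17 of 650 cells (2.62%, 1.53 to 4.15), and the somitic mesoderm-like cluster 10 held 8 of 336 (2.38%, 1.03 to 4.64). The cardiomyocyte-like cluster 8 held 5 of 398 cells (1.26%, 0.409 to 2.91). A further cluster whose markers were also cardiopharyngeal mesoderm-like, cluster 2, led by Sfrp5, Alcam and Shox2, held 2 of 605 cells (0.331%, 0.0401 to 1.19), at 0.232 CPM, so the class was not uniform for Tbx1. The neural ectoderm-like cluster 3, in which Tbx1 is not a usual transcript, held 1 of 519 cells (0.193%, 0.00488 to 1.07) at 0.0953 CPM and a median of 36674 UMIs. Read against this share as a background of free RNA, clusters 1, 6, 7 and 12 had intervals that lay above its interval, and clusters 2, 8 and 10 had intervals that overlapped it. The shares depend on depth. By level, the intervals of cluster 10, at 1.08 CPM (0.539 to 1.93), and cluster 5, at 0.872 CPM (0.399 to 1.65), also lay above that of cluster 3 (0.0115 to 0.344).

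**Figure D1:**
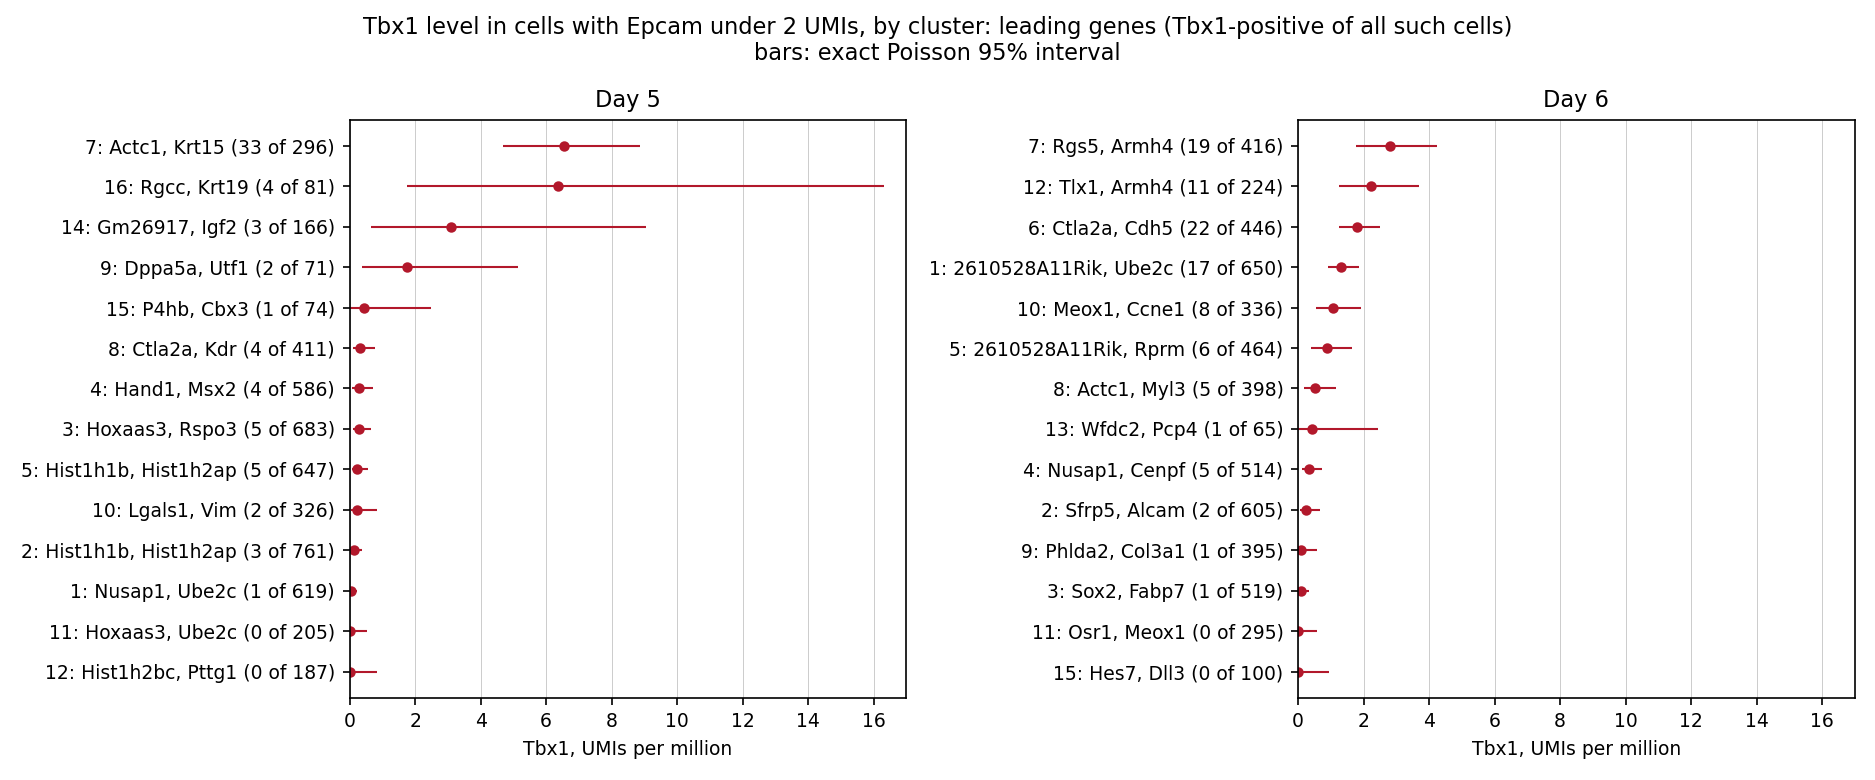
Level of Tbx1 (x axis, CPM) in the cells with Epcam under 2 UMIs of each cluster with 50 or more such cells, at day 5 (left) and day 6 (right), with the 2 leading genes and the number of Tbx1-positive cells of all such cells. Points are summed UMIs over summed totals and bars are exact Poisson 95% intervals: at day 5 cluster 7 stands at 6.54 CPM and most others below 1 CPM, and at day 6 clusters 7, 12 and 6 lead at 2.80, 2.24 and 1.81 CPM.

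Compared with matched cells, the Tbx1-positive cells of day 5 carried more transcript of Krt15, Krt19, Perp and Jag2, among others, and less of Tuba1a. A gene was counted as past the fold where its CPM + 10 was at least 2 times higher, or at most 0.5 times as high, among genes with a mean of at least 5 CPM over both sets. Of 9472 genes, 55 were higher (0.581%) and 2 were lower (0.0211%), and the median ratio of all genes was 1.0. Tbx1 and Epcam, which chose the cells, were left out.

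Of the keratins, Krt15 and Krt19 were past the fold while the more abundant Krt8 and Krt18 were not, at 354 against 413 and 302 against 250 CPM. Krt15, a type I keratin of stratified epithelium, stood at 119.5 CPM in the Tbx1-positive cells and 9.51 CPM in the matched cells, 12.6 times higher (10.1 to 15.7), and was found in 32.9% against 8.43% of cells. Of its UMIs 29.8% came from 1 cell, and without that cell the level was 84.7 CPM. Krt19, a keratin of simple epithelia, stood at 82.0 against 21.8 CPM (3.77 times, 3.06 to 4.62) and was found in 60.0% against 22.6% of cells. Counted together, the transcripts of both keratins were absent from 23 of the 70 cells (32.9%) but from 522 of the 700 matched cells (74.6%), and their sum ran from 0 to 3831 CPM with a median of 79.3 in the former and from 0 to 1461 with a median of 0 in the latter.

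Perp, a component of desmosomes, was found in 71.4% against 33.4% of cells, at 135.2 and 32.1 CPM (4.21 times, 3.58 to 4.95). Jag2, a Notch ligand, was higher at 36.3 against 7.57 CPM (4.79 times, 3.44 to 6.61), and was the only gene of 7 tested in the Notch list past the fold, while all 7 stood above 1. Other genes among the 15 highest included Rgcc, a regulator of the cell cycle, at 190.2 against 47.6 CPM, Gal, which encodes the neuropeptide galanin, at 56.3 against 11.4 CPM, and Nkx6-2, a homeobox gene, at 29.4 against 2.88 CPM. The remainder of the 15 included Pltp, a phospholipid transfer protein, at 77.0 against 18.8 CPM, Crip2 at 219.6 against 78.0 CPM, Kdelr3 at 56.3 against 10.5 CPM, Urah at 31.3 against 4.76 CPM, 1500009L16Rik at 114.5 against 39.0 CPM and Robo3, a guidance receptor, at 20.7 against 2.25 CPM.

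Fabp3 and Aqp3 were also among the highest, but leaned on the same cell. Fabp3, a fatty acid binding protein, stood at 235.3 against 45.2 CPM and was found in 74.3% against 35.7% of cells. Of its UMIs 35.9% came from 1 cell, without which the level was 152 CPM. Aqp3, a water and glycerol channel of epithelia, stood at 45.7 against 4.13 CPM, of which 61.6% came from that cell, and at 17.6 CPM without it.

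Few genes were lower by the same measure. Tuba1a, an alpha tubulin, stood at 237.2 against 490.2 CPM (0.484 times, 0.435 to 0.536) while it was found in similar shares of cells, 82.9% and 86.9%. Dppa3, a pluripotency gene, stood at 0.626 against 15.9 CPM, but was found in 1.43% of the Tbx1-positive and 1.0% of the matched cells. Among mesodermal factors none passed the fold. Hand2, a bHLH factor of heart and limb mesoderm, stood at 36.9 against 71.0 CPM and was found in 30% against 52.6% of cells, Hand1 stood at 147.7 against 237.5 CPM, and Twist1 at 75.7 against 102.7 CPM. Other genes among the 8 lowest were Fgf3, an FGF ligand, at 15.6 against 35.4 CPM, Ptn, the growth factor pleiotrophin, at 8.76 against 24.3 CPM and Kif22, a mitotic kinesin, at 10.6 against 28.6 CPM. Vim, the mesenchymal intermediate filament, stood at 1063 against 1505 CPM, and the 20 genes of the mesenchyme list summed to 549 against 733 CPM, with 0 of 12 tested genes past the fold and 3 above 1. Against comparison cells of the same clusters the ratio of that list rose from 0.749 to 0.932.

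By the sum of a fixed list of epithelial genes the day 5 set lay near its matched cells and far below the Tbx1-positive cells left out. That sum came mostly from Krt8 and Krt18, and the label non-epithelial was not settled for the day 5 set. The sum of 21 endoderm and epithelium genes other than Epcam was 846 CPM (802 to 892) in the Tbx1-positive cells, 759 CPM (745 to 772) in the matched cells and 2532 CPM (2491 to 2573) in the Tbx1-positive cells with 2 or more Epcam UMIs. Of 11 tested genes of that list 1, Krt19, was past the fold and 8 stood above 1, with a median ratio of CPM + 10 of 1.40. Krt8 and Krt18 stood at 354 and 302 CPM in the Tbx1-positive cells and at 413 and 250 CPM in the matched cells. The direction of the sum turned against comparison cells of the same clusters (0.932 times) and without cluster 7 (691 against 795 CPM). Members below the matched cells, beside Krt8, included Sox17 at 2.50 against 7.76 CPM and Cdx2 at 15.02 against 28.3 CPM. Cldn4 and Cldn7, tight junction claudins, stood at 9.39 and 20.02 CPM, against 0.938 and 8.32 CPM in the matched cells and 23.9 and 205 CPM in the cells left out. Cdh1, the epithelial cadherin, stood at 2.50 CPM against 3.63 CPM in the matched cells and 62.8 CPM in the cells left out, and Foxa2, an endoderm factor, at 1.88, 1.44 and 35.5 CPM. Spink1, a marker of the gastruloid endoderm cluster, stood at 10.01, 6.38 and 279 CPM. Krt15, by contrast, was higher in the Tbx1-positive cells with Epcam under 2 UMIs, at 119.5 CPM, than in those left out, at 54.7 CPM.

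The day 5 cells with 1 Epcam UMI carried more of these transcripts than those with none. Krt15 stood at 267 CPM in the 21 cells with 1 Epcam UMI and 73.8 CPM in the 49 cells with 0, Perp at 201 and 115 CPM, and Cldn7 at 58.2 and 8.20 CPM. Krt19, at 114 and 72.1 CPM, remained above its level of 21.8 CPM in the matched cells in both. The sum of the 21 epithelial genes was 1164 and 747 CPM. With Epcam at 0 in the Tbx1-positive and the comparison cells alike, 41 genes were higher and 2 lower.

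**Figure D2:**
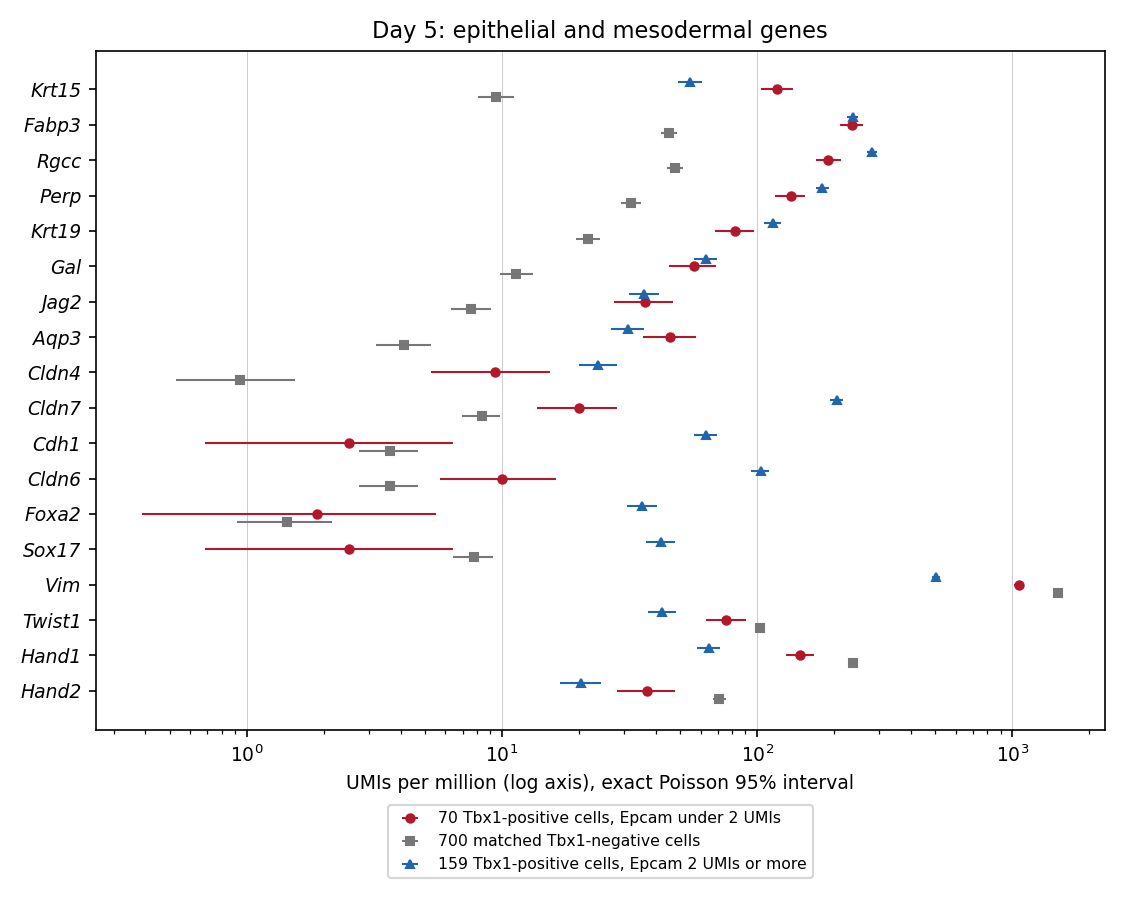
Levels (x axis, CPM, log scale) of epithelial and mesodermal genes at day 5 in 70 Tbx1-positive cells with Epcam under 2 UMIs, 700 matched Tbx1-negative cells and 159 Tbx1-positive cells with 2 or more Epcam UMIs, with exact Poisson 95% intervals as bars. The Tbx1-positive cells with little Epcam stand with those left out for Gal and Jag2, between the other 2 sets for Krt19 and Perp, at 82.0 and 135.2 CPM, and with the matched cells for Cdh1 and Foxa2, at 2.50 and 1.88 CPM.

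Most of the day 5 differences went with the cluster that the cells came from. When comparison cells were drawn from the same cluster as each Tbx1-positive cell, 4 genes were higher (0.0422%) and 0 were lower. These were Krt15, Fabp3, Aqp3 and Ctla2a, an endothelial gene named here after its values were seen, and in 3 of the 4 at least 30% of the UMIs came from 1 cell. Within cluster 7 the 33 Tbx1-positive cells had 237 CPM (202 to 276) of Krt15 against 102 CPM (93.7 to 111) in its Tbx1-negative cells, 264 against 179 CPM of Perp and 110.4 against 72.0 CPM of Gal, with 35.0% of the Krt15 UMIs in 1 cell. Krt19, at 154 against 142 CPM, and Rgcc, at 262 against 254 CPM, had overlapping intervals there. With 5 comparison cells per cell drawn at matched UMIs inside cluster 7 alone, 19 genes were higher (0.201%) and 14 lower (0.148%) in these 33 cells, and Krt15 stood at 237 against 92.6 CPM. Without cluster 7, in both sets, 16 genes were higher (0.171%) and 0 lower, 7 of the 16 were among the 55, and in 12 of them at least 30% of the UMIs came from 1 cell. In the 37 Tbx1-positive cells outside cluster 7, Krt19 stood at 27.5 against 12.7 CPM, Perp at 37.4 against 21.6 CPM and Rgcc at 136 against 17.4 CPM.

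Cardiopharyngeal mesoderm genes did not set the day 5 cells apart. Their list summed to 264 CPM in the Tbx1-positive and 283 CPM in the matched cells (0.933 times, 0.843 to 1.03), with 0 of 11 tested genes past the fold, 7 above 1 and a median ratio of 1.0. Without cluster 7 the direction turned, at 297 against 272 CPM. Isl1, a LIM homeobox factor of second heart field progenitors, stood at 13.8 against 13.7 CPM and Gata6 at 59.5 against 55.9 CPM. Tcf21, a bHLH factor of head muscle progenitors, was at 1.25 against 1.44 CPM, and Nkx2-5, a cardiac homeobox factor, at 0 against 0.25 CPM. Of 5 factors counted per cell (Isl1, Tcf21, Ebf3, Lhx2 and Nkx2-5), 65.7% of the Tbx1-positive and 70.6% of the matched cells had none.

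Fgf8 and Mesp1 stood higher at day 5 without passing the fold. Fgf8, a ligand known to lie downstream of Tbx1 in the embryo, was at 31.3 against 12.1 CPM (2.59 times, 1.86 to 3.55), with 32.0% of its UMIs in 1 cell. Mesp1, a bHLH factor of nascent cardiac and head mesoderm, was at 35.0 against 16.2 CPM (2.16 times, 1.59 to 2.90) and in 37.1% against 14.4% of cells. Cells with both Ebf3 and Mesp1 were 6 of 70 (8.57%, 3.21 to 17.7) and 6 of 700 (0.857%, 0.315 to 1.86). The streak and nascent mesoderm list, to which both Fgf8 and Mesp1 belong, summed to 139 against 92.2 CPM, with 0 of 5 tested genes past the fold.

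Among signalling lists at day 5, all 8 tested retinoic acid genes stood above 1, and the list summed to 297 against 179 CPM (1.66 times, 1.51 to 1.83). Crabp1, a retinoic acid binding protein, stood at 77.0 against 42.4 CPM, and none of the 8 passed the fold. The FGF ligand, FGF response and WNT lists had ratios of 1.01, 1.08 and 1.11, with 0 genes past the fold. The BMP list stood at 0.836 times, the hedgehog list at 0.884 times and the genes linked to Tbx1 in embryo studies at 1.08 times, with 0 of 12, 0 of 5 and 0 of 12 tested genes past the fold. Among the lists of other cell types, neural ectoderm stood at 2.08 times (1 of 4 genes past the fold, Nkx6-2), cardiomyocyte at 1.37 times (1 of 6, Myl7; 0.859 times within clusters and 98.9 against 109.5 CPM without cluster 7), pluripotent cells at 0.591 times (1 of 6 lower, Dppa3) and endothelium at 1.06 times (0 of 7). The neural ectoderm list summed to 127 against 61.2 CPM. Of this, Crabp1, also in the retinoic acid list, gave 77.0 against 42.4 CPM and Nkx6-2 gave 29.4 against 2.88 CPM. Dlx3, a surface ectoderm and placode factor, was not past the fold and was found in 18.6% against 3.0% of cells, at 9.39 against 1.31 CPM.

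Cell cycle lists at day 5 stood below the matched cells with no gene past the fold. S phase genes summed to 1534 against 1964 CPM and G2 and M phase genes to 3863 against 4643 CPM, with 2 of 22 and 2 of 23 tested genes above 1. Against comparison cells of the same clusters the S phase list was 0.844 times as high, and the G2 and M phase list was level, at 3863 against 3859 CPM. At matched UMIs inside cluster 7, some mitotic genes had more CPM, with Cenpf at 116 against 56.8 CPM, Cenpe at 88.6 against 39.2 CPM, Mki67 at 52.3 against 21.6 CPM and Kif23 at 32.0 against 8.20 CPM. The shares of cells did not all rise, at 39.4% against 42.4% for Cenpf, 60.6% against 67.3% for Ube2c and 42.4% against 34.55% for Tpx2. The ratios of Aurka (1.33 times, 0.386 to 3.71) and Nuf2 (1.32 times, 0.609 to 2.61) had intervals that held 1. Stress response genes summed to 498 against 375 CPM, and 1 of 11, Atf3, was past the fold at 33.2 against 9.76 CPM. Hox genes of groups 5 to 13 summed to 116 against 150 CPM and those of groups 1 to 4 to 178 against 206 CPM, with 0 of 12 and 0 of 8 past the fold. In the remaining lists no gene was past the fold: the ratios were 1.67 for somitic mesoderm, 0.853 for sclerotome, 0.938 for intermediate and lateral mesoderm, 1.38 for haematopoietic cells, 1.18 for pharyngeal endoderm, 1.41 for neural crest and placode and 1.07 for other T-box genes. Of the 30 lists, 7 changed direction against comparison cells of the same clusters, namely endothelium, haematopoietic cells, cardiomyocyte, endoderm and epithelium, pharyngeal endoderm, Hox groups 5 to 13 and G2 and M phase, with ratios from 0.838 to 1.09. Without cluster 7 in either set, 7 did so, namely the cardiopharyngeal, cardiomyocyte and epithelial lists, haematopoietic cells at 0.926 times, Hox groups 5 to 13 at 1.05 times, sclerotome at 1.01 times and skeletal muscle progenitors at 1.498 times.

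At day 6 the higher genes included 6 of the endothelium list and the lower genes 8 of the list of Hox groups 5 to 13. Of 9811 tested genes, 29 were higher (0.296%) and 25 lower (0.255%) in the 98 Tbx1-positive cells than in the 980 matched cells, and the median ratio was 1.0. No gene was past the fold in the same direction at both days, of 55 and 29 higher and 2 and 25 lower genes. Of the epithelial genes, Cdh1, Cldn4, Cldn6, Foxa1 and Foxa2 were not counted in any of the 98 cells. Krt8, Krt18 and Krt19 were counted, at 41.25, 24.9 and 4.37 CPM, against 46.2, 23.6 and 6.42 CPM in the matched cells. The sum of the 21 epithelial genes was 154 CPM (142 to 167), against 144 CPM in the matched cells and 3842 CPM in the 17 Tbx1-positive cells with 2 or more Epcam UMIs. These markers were low in the day 6 set, but it and the matched cells were chosen by low Epcam and the 17 cells by high Epcam. The contrast is therefore partly set by the rule and does not test the label non-epithelial. Sox17, which endothelium also makes, gave 78.4 of the 154 CPM. The ratio of the sum to that of the matched cells, 1.07, was close to the 1.12 of day 5. Without the endothelium-like cluster the ratio was 0.854.

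Endothelial transcripts were concentrated in a minority of the day 6 cells. The endothelium list summed to 1874 CPM in the Tbx1-positive and 876 CPM in the matched cells (2.14 times, 2.08 to 2.20). All 19 tested genes of the list stood above 1 and 6 were past the fold, namely Cldn5, Emcn, Sox18, Flt4, Esam and Egfl7. Per cell, the sum exceeded 1000 CPM in 23 of 98 cells (23.5%) and in 119 of 980 matched cells (12.1%), while its median was 180 and 117 CPM. Without the endothelium-like cluster 6 in either set, the list stood at 194 and 151 CPM.

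Cldn5, a tight junction claudin of endothelium, had the highest ratio of CPM + 10 (3.60), at 218.6 against 53.6 CPM (4.08 times as plain CPM, 3.75 to 4.43), and was found in 23 of the 98 cells (23.5%) against 13.1% of matched cells. It lies on the same chromosome as Tbx1, at chr16:18776847-18778262 on the plus strand (GRCm38), within the 22q11.2 syntenic region. Emcn, an endothelial sialomucin, stood at 122.9 against 38.0 CPM, Sox18 and Sox17, SoxF factors of endothelium, at 92.1 against 32.8 CPM and 78.4 against 29.9 CPM, and Cd34 at 67.5 against 20.4 CPM. Flt4, the receptor for VEGF-C, stood at 29.8 against 8.75 CPM, and Esam and Egfl7 at 82.5 against 33.8 and 292.6 against 139.8 CPM. Gng11, a G protein subunit, was higher at 257.9 against 81.4 CPM and was found in 70.4% against 52.8% of cells, a broader spread than that of Cldn5. Kdr and Cdh5, which mark endothelium in general, stood at 151.9 against 82.9 and 119.4 against 64.3 CPM and did not pass the fold.

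Further genes of the 15 highest were Kcne3 at 58.7 against 13.3 CPM, Upp1 at 73.2 against 24.6 CPM, Pcdh17 at 45.6 against 14.9 CPM, Vamp5 at 77.9 against 29.8 CPM, Ctla2a at 287 against 125 CPM, Ly6h at 46.2 against 16.1 CPM and D030007L05Rik at 23.2 against 3.98 CPM. As plain CPM the ratios of D030007L05Rik and Kcne3, 5.84 and 4.41, and those of Col15a1 and Cck, 4.29 and 4.23, were above that of Cldn5. Without the endothelium-like cluster 6, the ratios of CPM + 10 of Pcdh17 and Ly6h were 0.961 and 0.675. Col15a1 at 25.7 against 5.98 CPM had 41.5% of its UMIs in 1 cell. Cck, a peptide hormone gene, stood at 139.6 against 33.0 CPM, but 76.5% of its UMIs were in 1 cell, without that cell its level was 33.4 CPM, and its direction turned among cells with 2 or more Tbx1 UMIs.

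Within the endothelium-like cluster, Cldn5 remained higher in the Tbx1-positive cells while Kdr and Cdh5 did not. Cldn5 stood at 576 CPM (536 to 618) in the 22 Tbx1-positive cells and 284 CPM (276 to 292) in the 424 Tbx1-negative cells of the cluster, and was found in 22 of the 22 cells and 86.3% of the others. Kdr stood at 360 against 376 CPM and Cdh5 at 315 against 345 CPM, with overlapping intervals, and the endothelium list, of which Cldn5 is a member, stood at 4704 against 4278 CPM. When comparison cells for all 98 cells were drawn from the same clusters, 2 genes were higher (0.0204%), Cldn5 at 218.6 against 97.98 CPM and Cck, and the endothelium list was 1.18 times higher. With 5 comparison cells per cell drawn at matched UMIs inside cluster 6, 31 genes were higher (0.327%) and 29 lower (0.305%), and Cldn5, at 576 against 284 CPM, was just under the limit with a ratio of CPM + 10 of 1.991. The Tbx1-positive cells of the cluster also had 595.5 CPM of Actc1, a cardiac actin, against 47.1 CPM, and 92.6% of it was in 1 cell. Of these 22 cells 3 were among the highest doublet scores, against 18.6% of the cluster's Tbx1-negative cells.

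The other genes of the 22q11.2 syntenic region did not go with Tbx1. Of 22 tested neighbours, 1 was past the fold at day 6, Cldn5, with 10 of 22 above 1 and a median ratio of 0.986. At day 5, 0 of 22 were past the fold, 9 stood above 1, and Cldn5 was at 3.75 against 5.44 CPM. Ranbp1, a nuclear transport gene of the region, stood at 787 against 889 CPM at day 6.

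Posterior Hox transcripts were low in the Tbx1-positive cells of day 6. Hox genes pattern the body axis, and groups 5 to 13 are used in the trunk and tail. They summed to 164.5 CPM in the Tbx1-positive and 514.6 CPM in the matched cells (0.320 times, 0.294 to 0.347), and 8 of 16 tested genes were past the fold, with 1 of 16 above 1. Per cell, the sum was 0 in 44 of the 98 cells (44.9%) and in 258 of 980 matched cells (26.3%), with medians of 29.8 and 166 CPM and highest values of 1666 and 3239 CPM. Hox genes of groups 1 to 4, used in the hindbrain and pharynx, summed to 273 against 336 CPM (0.811 times, 0.760 to 0.865), with 0 of 11 past the fold.

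Among the Hox genes past the fold were Hoxc6 at 7.10 against 47.5 CPM, Hoxc9 at 8.20 against 48.0 CPM, Hoxb9 at 14.2 against 65.2 CPM and Hoxa9 at 5.19 against 34.4 CPM. Hoxc10, found in 3 of the 98 cells, stood at 8.74 against 54.8 CPM. Hoxb5os and Hoxaas3, antisense transcripts of Hox clusters, stood at 17.8 against 96.8 and 10.7 against 59.1 CPM, and how the counting treated strand is not given in the sources used here. Cdx2, a homeobox regulator of the posterior axis, stood at 3.28 against 32.6 CPM.

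Several other lower genes belong to axial progenitors and neural tissue. Sox2, a neural and progenitor factor, stood at 4.10 against 36.7 CPM, Fabp7, a radial glia gene, at 1.64 against 29.97 CPM, Fgf8 at 1.64 against 15.2 CPM and Wnt4 at 1.37 against 13.7 CPM. T, which marks the streak and tailbud, was not counted in the 98 cells and stood at 9.36 CPM in the matched cells. The streak and nascent mesoderm list summed to 7.10 against 76.0 CPM with 2 of 2 tested genes past the fold, the somitic list to 85.5 against 146 CPM with 2 of 6 lower, and the FGF ligands to 10.1 against 50.2 CPM with 2 of 3 lower. Against comparison cells of the same clusters these lists stood at 0.355, 0.940 and 0.431 times. None of Sox2, Fabp7, Fgf8 and Wnt4 was past the fold in that comparison. Further genes were also lower than in the matched cells. They included 2610528A11Rik at 7.65 against 77.6 CPM, Ifitm1, an interferon-induced membrane protein, at 17.8 against 110.5 CPM, and Rprm, a cell cycle inhibitor, at 14.5 against 80.6 CPM. Ifitm1 was also among the 10 leading genes of cluster 15, a somitic mesoderm-like cluster led by Hes7 and Dll3.

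The low posterior Hox level was smaller within clusters but did not vanish. With comparison cells from the same clusters the groups 5 to 13 list was 0.542 times as high, and 8 genes were lower (0.0816%), namely 2610528A11Rik, Rprm, Ifitm1, Tmem100, Phox2a, Hapln1, Hand1 and Hoxb5os. In cluster 1 the list stood at 170 CPM (140 to 205) in the 17 Tbx1-positive cells and 644 CPM (633 to 654) in the Tbx1-negative cells. In the endothelium-like cluster 6 it stood the other way, at 194 CPM (172 to 219) against 153 CPM (148 to 159). In clusters 7 and 12 it was low in both sets, at 27.9 against 40.9 and 20.2 against 32.1 CPM. Without cluster 6, 12 genes were higher (0.124%) and 35 lower (0.362%) in the other 76 Tbx1-positive cells, of which 4 and 20 were among the 29 and 25.

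**Figure D3:**
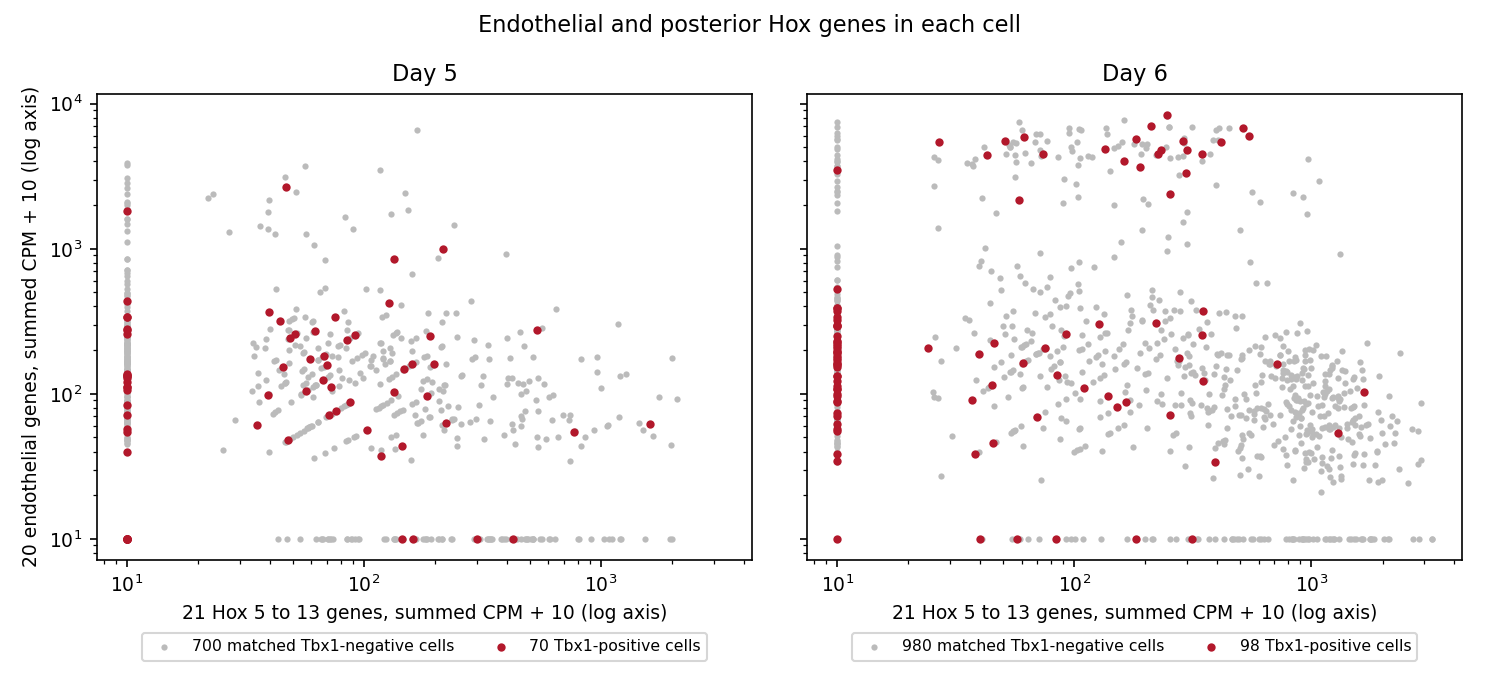
Summed level of 21 Hox genes of groups 5 to 13 (x axis) against that of 20 endothelial genes (y axis) in each cell, both as CPM + 10 on log scales, for Tbx1-positive cells (red) and matched Tbx1-negative cells (grey) at day 5 (left) and day 6 (right). At day 6 the Tbx1-positive cells fall into 23 with over 1000 CPM of endothelial genes and others with little, and 44 of the 98 lie at 0 on the Hox axis.

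Cardiopharyngeal genes differed from gene to gene at day 6, and none was higher past the fold. The list summed to 820 against 753 CPM (1.09 times, 1.05 to 1.13), with 14 of 21 tested genes above 1, 0 higher past the fold and 1 lower, Fgf8. Against comparison cells of the same clusters the direction of the sum turned (0.954 times). Ebf3, an Ebf family factor of head mesoderm, stood at 21.9 against 8.48 CPM (2.58 times, 1.99 to 3.31) and was found in 45.9% against 20.3% of cells. Prrx1, a mesenchymal homeobox factor of another list, stood at 83.3 against 36.7 CPM (2.27 times, 2.00 to 2.57) and in 68.4% against 46.5% of cells, and its ratio of CPM + 10 was just under the limit at 1.999. Irx3 stood at 66.4 against 36.9 CPM and Irx5 at 39.3 against 27.6 CPM.

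Isl1 and Tcf21 stood closer to the matched cells. Isl1 was at 43.2 against 32.3 CPM (1.34 times, 1.12 to 1.58) and in 50% against 45.1% of cells, and Tcf21 at 22.7 against 16.4 CPM (1.39 times, 1.09 to 1.75) and in 36.7% against 28.4% of cells. Nkx2-5 stood at 11.8 against 10.4 CPM (1.13 times, 0.806 to 1.56) and Hand2 at 117 against 112 CPM (1.05 times, 0.946 to 1.16), so that neither differed beyond counting error. Below the matched cells were Lhx2, a LIM homeobox factor, at 4.92 against 12.9 CPM, Fgf10, a second heart field ligand, at 3.01 against 8.34 CPM and Gata4 at 12.8 against 30.5 CPM. Msc, a marker of branchiomeric muscle progenitors, was not counted in the Tbx1-positive cells, and 9 of the 10 skeletal muscle progenitor genes were at 0 in them.

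The shares of cells with Ebf3 and another mesodermal factor were higher among the Tbx1-positive cells. Ebf3 and Prrx1 were both found in 37 of 98 cells (37.8%, 28.2 to 48.1) against 11.6% (9.69 to 13.8) of matched cells, Ebf3 and Isl1 in 30.6% (21.7 to 40.7) against 9.69% (7.91 to 11.7), and Ebf3 and Tcf21 in 21.4% (13.8 to 30.9) against 5.92% (4.52 to 7.58). Isl1 and Tcf21 were both found in 24.5% (16.4 to 34.2) against 18.1% (15.7 to 20.6), and Isl1 and Lhx2 in 4.08% (1.12 to 10.1) against 8.88% (7.17 to 10.8), with overlapping intervals in both pairs. Of the 5 factors Isl1, Tcf21, Ebf3, Lhx2 and Nkx2-5, 18 of 98 cells (18.4%) had exactly 3, against 10.1% of matched cells, and 23 cells (23.5%) had none, against 29.0%.

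Set against all Tbx1-negative cells of the same cluster, the Tbx1-positive cells of day 6 had more Crabp1, Ebf3 or Prrx1 in some clusters. In cluster 7, Ebf3 stood at 48.2 CPM (29.0 to 75.3) in the 19 Tbx1-positive cells and 19.4 CPM (16.4 to 22.9) in the others, and in cluster 12 at 57.7 CPM (35.3 to 89.1) against 21.4 CPM (17.9 to 25.3). In clusters 1 and 10 it stood at 16.9 against 10.1 and 12.8 against 12.9 CPM, with overlapping intervals. Crabp1 stood at 339 against 125 CPM in cluster 1, 292 against 94.8 CPM in cluster 7, 226 against 85.2 CPM in cluster 10 and 214 against 98.3 CPM in cluster 12, where 51.4% of it was in 1 cell. In cluster 4 it stood at 280 against 95.7 CPM, with 75.7% in 1 of 5 cells, and in clusters 5 and 8, at 292 against 205 and 51.5 against 38.2 CPM, the intervals overlapped. Prrx1 stood at 133.5 against 54.1, 178 against 137, 111 against 44.9 and 182 against 126 CPM in the same clusters, with overlapping intervals in cluster 7. In the endothelium-like cluster 6, Crabp1 and Prrx1 were scarce, at 9.53 against 15.3 and 5.87 against 9.27 CPM.

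Hand1 was lower in the Tbx1-positive cells of clusters 7 and 12, among others, and some cardiomyocyte genes were lower in these 2 clusters. Hand1 stood at 27.9 CPM (13.9 to 49.9) against 114 CPM (106 to 122) in cluster 7 and 11.5 CPM (3.14 to 29.6) against 85.2 CPM (78.2 to 92.7) in cluster 12. Myl7, an atrial myosin light chain that appears early in cardiomyocytes, stood at 25.4 CPM (12.2 to 46.6) against 648 CPM (630 to 667) in cluster 7 and 43.3 CPM (24.2 to 71.4) against 553 CPM (535 to 572) in cluster 12, although it was found in 47.4% against 60.2% and 54.5% against 66.2% of cells. Tnnt2, cardiac troponin T, stood at 58.3 against 340 CPM in cluster 7. In cluster 12 the intervals of Actc1 overlapped, at 54.8 against 79.6 CPM. The cardiomyocyte list stood there at 1377 against 2224 CPM, with 62.7% of the former in 1 cell. Isl1, at 101.5 against 107 CPM in cluster 7 and 83.7 against 98.8 CPM in cluster 12, had overlapping intervals. Over all 98 cells the cardiomyocyte list stood at 3551 against 3528 CPM, with 0 of 14 genes past the fold. The sum leaned on few cells, and the medians per cell were 242 and 202 CPM. The list stood at 31740 CPM in the 5 Tbx1-positive cells of the cardiomyocyte-like cluster 8. In those of cluster 6 it stood at 2836 CPM, with 86.8% in 1 cell. These within-cluster values rest on 5 to 22 cells each and were not drawn at matched UMIs. With 5 comparison cells per cell drawn at matched UMIs inside cluster 7, 62 genes were higher (0.645%) and 161 lower (1.67%) in the 19 Tbx1-positive cells, with Ebf3 at 48.2 against 16.3 CPM, Crabp1 at 292 against 98.4 CPM and Hand1 at 27.9 against 119 CPM.

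**Figure D4:**
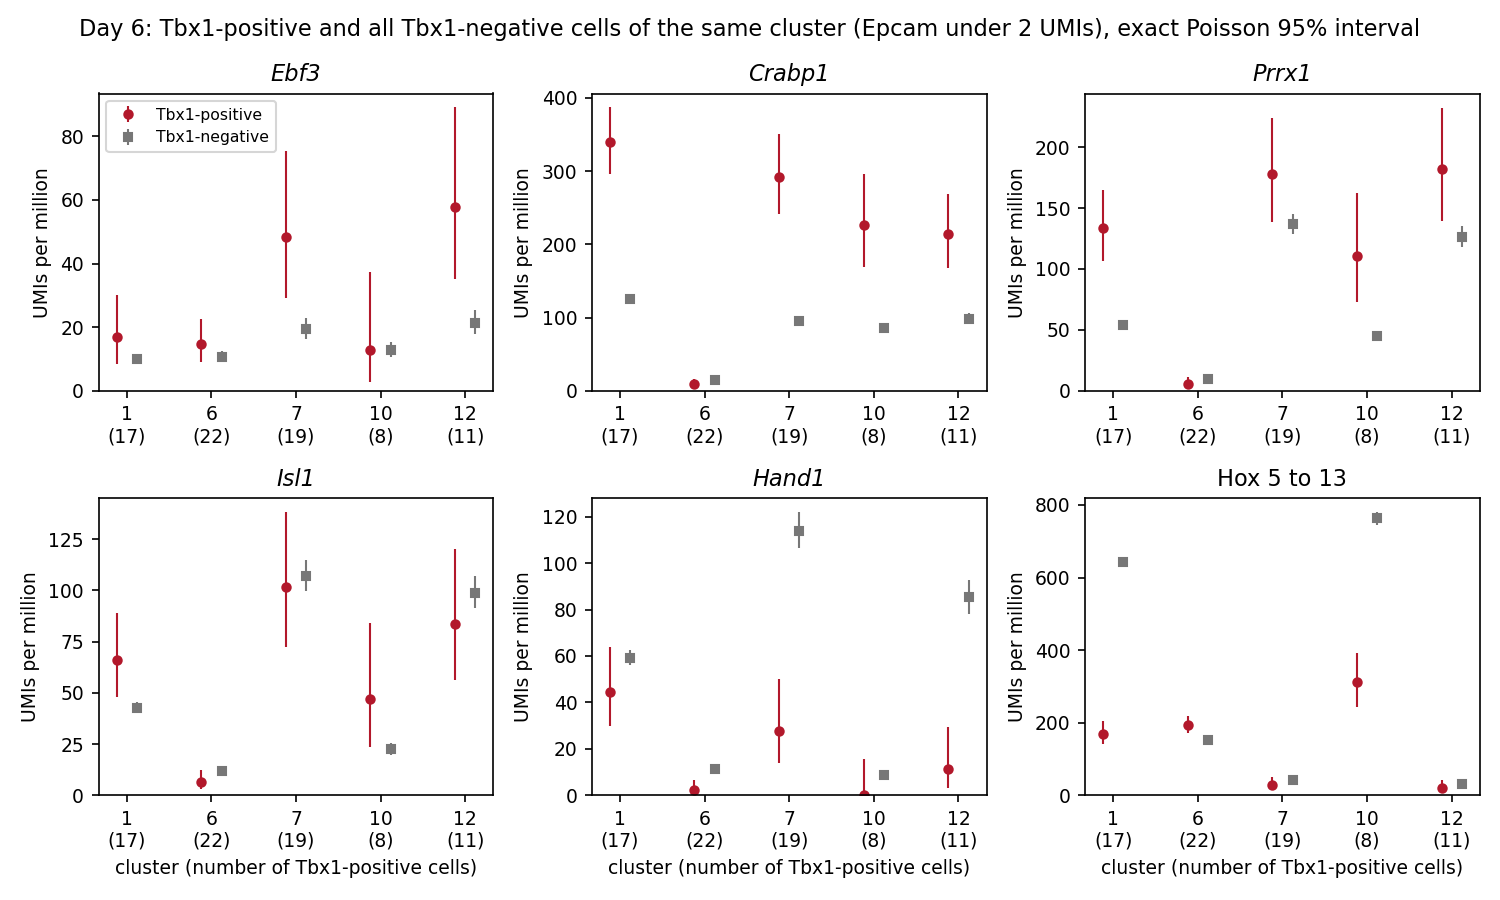
Levels (y axes, CPM) at day 6 of Ebf3, Crabp1, Prrx1, Isl1, Hand1 and the summed Hox genes of groups 5 to 13 in Tbx1-positive (red circles) and all Tbx1-negative cells (grey squares) with Epcam under 2 UMIs, by cluster (x axis, with the number of Tbx1-positive cells below), with exact Poisson 95% intervals as bars. Crabp1 is higher in the Tbx1-positive cells of clusters 1, 7, 10 and 12 but not of cluster 6, and Hand1 is lower in clusters 7 and 12, at 27.9 against 114 and 11.5 against 85.2 CPM.

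Among signalling lists at day 6 the retinoic acid list stood above the matched cells and the WNT, BMP and hedgehog lists below. Retinoic acid genes summed to 650 against 558 CPM (1.16 times, 1.11 to 1.22), with 8 of 11 tested genes above 1 and 0 past the fold. Crabp1 in that list was at 159 against 98.5 CPM and in 72.4% against 47.7% of cells, and the list was 1.39 times higher against comparison cells of the same clusters. WNT genes summed to 298 against 489 CPM with 2 of 13 lower, BMP genes to 1469 against 1729 CPM with 1 of 14 lower, hedgehog genes to 210.1 against 250.8 CPM, a difference that was gone against comparison cells of the same clusters (0.999 times), and Notch genes to 253 against 256 CPM with 0 past the fold. Of 21 tested genes linked to Tbx1 in embryo studies, 1 was higher, Flt4, and 1 lower, Fgf8, with a median ratio of 0.998. Among other T-box genes, Tbx5 and Tbx20, which are made in the heart, stood at 6.56 against 17.9 and 10.1 against 22.8 CPM, Tbx3 stood at 15.6 against 7.66 CPM, and 0 of 5 tested were past the fold.

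The remaining day 6 lists held few genes past the fold. The mesenchyme list stood at 831 against 791 CPM with 1 of 18 lower, Hand1, neural ectoderm at 178 against 218 CPM with 2 of 6 lower (but 1.58 times higher within clusters and 272 against 248.5 CPM without cluster 6), and intermediate and lateral mesoderm at 112 against 149 CPM with 0 of 4. Of the 272 and 248.5 CPM, Crabp1, which is also in the retinoic acid list, gave 248 and 117 CPM. Sox2, Fabp7, Hes5 and Sox3 of the neural ectoderm list were lower past the fold without cluster 6. S phase genes stood at 1795 against 1746 CPM, G2 and M phase genes at 4196 against 4463 CPM and stress response genes at 354 against 279 CPM, with 0 genes past the fold in each. The FGF receptor and response list stood at 0.884 times with 0 of 10, pharyngeal endoderm at 1.33 times with 0 of 3, neural crest and placode at 1.21 times with 0 of 3, sclerotome at 0.792 times with 0 of 2 and pluripotent cells at 0.794 times with 0 of 1. In the endoderm and epithelium list Sox17 was higher and Cdx2 lower of 5 tested, and the haematopoietic list stood at 0.207 times with Hba-x, an embryonic globin, lower as its 1 tested gene. Of the 30 lists, 4 changed direction against comparison cells of the same clusters, the neural ectoderm and cardiopharyngeal lists, the genes linked to Tbx1 at 0.980 times and pharyngeal endoderm at 0.928 times. Without cluster 6, 7 did, namely neural ectoderm, endoderm and epithelium, the genes linked to Tbx1 at 0.978 times, pharyngeal endoderm at 0.787 times, neural crest and placode at 0.829 times, hedgehog at 1.04 times and haematopoietic cells at 1.25 times.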

How the data were processed

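The deposited files were filtered matrices of raw UMI counts per gene and cell, made by the authors with the 10x Genomics Chromium 3' v3.1 chemistry and, per the file headers, Cell Ranger 3.1.0 on mm10 (GRCm38), with 1 library per day and no cell annotation used here. The authors analysed them in Seurat with manual limits on counts and DoubletFinder, and those steps are not in the counts. The cells and the gene lists were chosen with earlier results of these data known.

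Cells with 2000 or more UMIs and a mitochondrial share under 20% were kept. For each Tbx1-positive cell, 10 Tbx1-negative cells with Epcam under 2 UMIs were drawn without replacement within 5% of its total UMIs (fixed seed); for 3 cells at day 5 and 2 at day 6 the nearest cells outside this window filled the number. UMIs were summed per set and given as CPM with exact Poisson intervals, ratios of CPM with exact conditional binomial intervals, and shares of cells with exact Clopper-Pearson intervals. A gene was past the fold where the ratio of CPM + 10 was at least 2 or at most 0.5, among genes with a mean CPM of at least 5. Since fold changes used CPM + 10, those of low genes are understated, and ratios quoted with intervals are of plain CPM.

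Each day was clustered alone (log-normalisation to 10000 UMIs, 2000 variable genes without Tbx1 and Epcam, 30 principal components, 20 neighbours, Leiden resolution 1). A cluster was named only if at least 5 markers of 1 class were raised and that class led among its 10 leading genes, a rule set after the clusters were seen. Doublets were scored against simulated doublets and kept. Named genes were those of the lists and, per day, the 15 highest and 8 lowest ratios among genes found in at least 10% of cells of the higher set, without mitochondrial and ribosomal protein genes; other names were chosen after their values were seen, namely Ctla2a at day 5, Tmem100, Phox2a, Hapln1, Vim and the leading genes of clusters. Alternatives changed the Tbx1, Epcam and UMI limits, the matching, seed, weighting, doublets, pseudocount, filter, thinning and resolution. Matching inside single clusters, with 5 comparison cells per Tbx1-positive cell, was added after the data were seen. The summed UMIs were 1598113 and 3660410 over the Tbx1-positive cells of days 5 and 6. With 1 library per day there was no model fit; the interval, matching and fold functions were tested on simulated data. Python 3.11.15, numpy 2.4.6, scipy 1.17.1, pandas 2.3.3, scikit-learn 1.9.0, leidenalg 0.10.2, igraph 0.11.9 and matplotlib 3.10.9 were used.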

Additional observations from a re-analysis of the deposited data

Results flagged for a closer look

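Fgf8 and Wnt4 stood on opposite sides of the matched cells at the 2 days. The ratio of CPM + 10 of Fgf8 was 1.87 at day 5, when 18 of the 70 Tbx1-positive cells held it, and 0.462 at day 6, when 6 of the 98 did. That of Wnt4, a WNT ligand, was 1.59 at day 5 and 0.480 at day 6. The difference between the days was not tested, since each day is 1 library.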

How the results depend on the processing

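No paired analysis was possible because each day is 1 library with no replicate to pair. At day 5, the 55 higher and 2 lower genes became 380 and 285 with Tbx1 at 2 or more UMIs (11 cells), 98 and 1 with all negative cells unmatched, 4 and 0 with matching within clusters, 93 and 6 as a mean over cells, 16 and 0 without the cluster with most Tbx1-positive cells, and 330 and 70 with a pseudocount of 1 CPM; the lower count was 1 with another seed, without the highest doublet scores and with a mean CPM of at least 20. At day 6, the 29 higher and 25 lower genes became 90 and 48 with 2 or more Tbx1 UMIs (27 cells), 2 and 8 within clusters, and 125 and 93 with a pseudocount of 1 CPM; the higher count was 78 unmatched, 19 as a mean over cells and 12 without that cluster, and the lower count 38 without the highest doublet scores and 13 at a mean CPM of 20. The within-cluster and 2-UMI settings change which cells are compared; the cause of the other shifts was not tested. The thinned share of day 5 cluster 7 fell from 7.38% to 4.12% at 5000 UMIs.

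Leaving out the cluster with most Tbx1-positive cells, an alternative chosen after seeing the data, turned the day 6 ratios of Pcdh17 to 0.961, of Ly6h to 0.675 and of the haematopoietic list to 1.25. Requiring 2 Tbx1 UMIs turned Cck to 0.335. Of 976 gene and list values, 622 stayed within their interval, 350 moved and 4 reversed. Counting every list, called or not, 7 of 30 at day 5 and 4 at day 6 changed direction within clusters, and 7 at each day without that cluster. Limits on log10 UMIs left 62 and 96 cells, and resolution 0.5 put 52.9% and 23.5% of them in the cluster with most, which at day 6 was then the Rgs5 and Ntrk2 cluster and not the endothelium-like one. Depth limits Tbx1 itself, since 59 of 70 and 71 of 98 cells hold 1 UMI.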
